A study of Mus musculus with 12 samples.

Results

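The plasma cells (PC) described here are the 137 cells that the authors' annotation names PC, of 6000 B lineage cells in the deposited matrix, which came from lymph nodes of 3 mice. Mouse 1 gave 46 of these PC, mouse 2 gave 58 and mouse 3 gave 33. The mice had been immunised with NP-KLH, a hapten on a carrier protein, in Sigma Adjuvant System, and were analysed on day 16, 5 days after tamoxifen by gavage. Cells positive for eYFP and negative for IgD were sorted, PC and B cells were captured in separate wells, and transcripts were counted as unique molecular identifiers (UMIs) with a droplet assay that reads their 5' ends. The states set against PC come from the same animals: 49 prePC, 396 preMem and 5418 germinal center (GC) cells, which are the DZ, LZ and LZtoDZ cells of the annotation. All groups share the immunisation, the tamoxifen and the eYFP label, while strain and Cre driver are not stated in the labels.

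Plasma cells are B cells turned into antibody factories. Prdm1 (Blimp-1) and Irf4 install the programme and shut down B cell genes such as Pax5 and Bcl6. Xbp1 enlarges the endoplasmic reticulum (ER), where antibody chains are imported, folded by chaperones, glycosylated and passed to the Golgi, while misfolded chains are withdrawn and degraded. Young plasma cells may still divide and still carry surface molecules of B cells.

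The annotation PC coincided cell for cell with 1 of the authors' clusters, so the cells had been grouped on these same counts, and differences between PC and other states are given as a description. A PC held 6400 to 54967 UMIs, with a median of 24018. The median total of a mouse averaged 23340 ± 2296 UMIs in PC and 7158 ± 338 UMIs in GC cells (SD, n = 3 mice). Barcode names form 2 series, not assigned to a sorted fraction by any label, and no barcode occurred in both (0 shared). The first series held 20 PC (3, 11 and 6 in mice 1, 2 and 3) and 5415 of 5418 GC cells, and the second held 117 PC and 3 GC cells. Series and state are thus largely confounded between PC and GC cells. The PC of the first series stood apart from the rest, as described below, so results that change without them are given both ways. In 126 PC no UMI of the T and NK, myeloid or stromal and erythroid marker lists was found. The 9 measured T and NK genes (of 10) summed to 1.34, 0 and 0 CPM of non-immunoglobulin UMIs in PC of mice 1, 2 and 3 and to 2.45, 1.74 and 1.96 CPM in GC cells. The 6 measured myeloid genes (of 10) summed to 10.7, 11.97 and 34.8 CPM in PC and 7.54, 1.36 and 2.71 CPM in GC cells, higher in PC in each mouse. Fcer1g was found in 5 PC (at most 11 UMIs), Lyz2 in 4, Itgam in 3 and C1qc in 1. Csf1r and C1qa were at 0 UMIs in PC, as were the 3 measured stromal and erythroid genes (of 8).

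The defining genes of plasma cells were present in each mouse. Jchain, the joining chain of polymeric antibody, stood at 37255, 39238 and 25045 CPM in the summed PC of mice 1, 2 and 3, against 941, 954 and 922 CPM in GC cells. Xbp1 stood at 3558, 4075 and 2474 CPM in PC and 118, 106 and 109.7 CPM in GC cells. Sdc1, the surface marker CD138, stood at 158, 132 and 129 CPM in PC and 0, 0.365 and 0.274 CPM in GC cells. PC lay far above GC cells in all 3 genes, with no overlap between mice. Prdm1 stood at 51.8, 47.7 and 47.8 CPM in PC and 0.339, 0.513 and 0.7199 CPM in GC cells. Tnfrsf17, the BCMA receptor for survival factors, had 122 UMIs in PC and 0 in GC cells, at least 561-fold higher in PC against a floor of 3 UMIs over the GC group. CPM of summed cells are scaled by TMM factors with immunoglobulin genes kept.

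Single PC were less uniform in the sparse markers. Jchain and Xbp1 had a UMI in 137 and 137 PC, Sdc1 in 92, Prdm1 in 51 and Tnfrsf17 in 39. To compare states at 1 depth, every cell was thinned to 4000 non-immunoglobulin UMIs, which left out 6 PC and 443 GC cells. These 6 PC had 50.6 to 67.6% of their UMIs from immunoglobulin genes, so thinning dropped only PC with a high immunoglobulin share. Sdc1 was then seen in 35.9% of PC and 0.0804% of GC cells, Prdm1 in 15.3% of PC and 0.402% of GC cells, and Tnfrsf17 in 13.7% of PC and 0 of 4975 GC cells, which allows up to 0.0603%. Xbp1 was seen in 98.5% of PC and 38.2% of GC cells and Jchain in 99.2% of PC and 95.4% of GC cells. Jchain was thus detected in nearly all cells of both states and differed in level; how much of it in GC cells is free RNA was not tested.

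Immunoglobulin load, the share of a cell's UMIs from immunoglobulin genes, ranged widely among plasma cells. It ran from 1.28% to 75.8%, with a median of 37.1% and quartiles of 21.1% and 55.8%. The median was 41.9% in mouse 1 (range 2.55% to 73.4%), 36.7% in mouse 2 (1.299% to 75.8%) and 28.6% in mouse 3 (1.28% to 68.8%). The ranges of the mice overlapped almost wholly, so most of the spread lay between cells of 1 mouse. In molecules a PC held 246 to 27588 immunoglobulin UMIs, with a median of 7854. A load of at least 50% was found in 46 PC and one under 10% in 13.

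Mouse medians averaged 35.8 ± 6.71% in PC, 2.95 ± 0.299% in prePC, 1.72 ± 0.0486% in preMem and 1.34 ± 0.0498% in GC cells (SD, n = 3 mice). PC exceeded GC cells by 34.4 ± 6.66 percentage points, with the same direction in 3 of 3 mice. No GC cell exceeded 6.69%, and 1 prePC, at 30.1%, passed the lower quartile of PC. Most of the load came from variable segments, as the assay reads the 5' end: constant region genes alone made up 3.65% of UMIs (mean of the mouse medians).

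**Figure D1:**
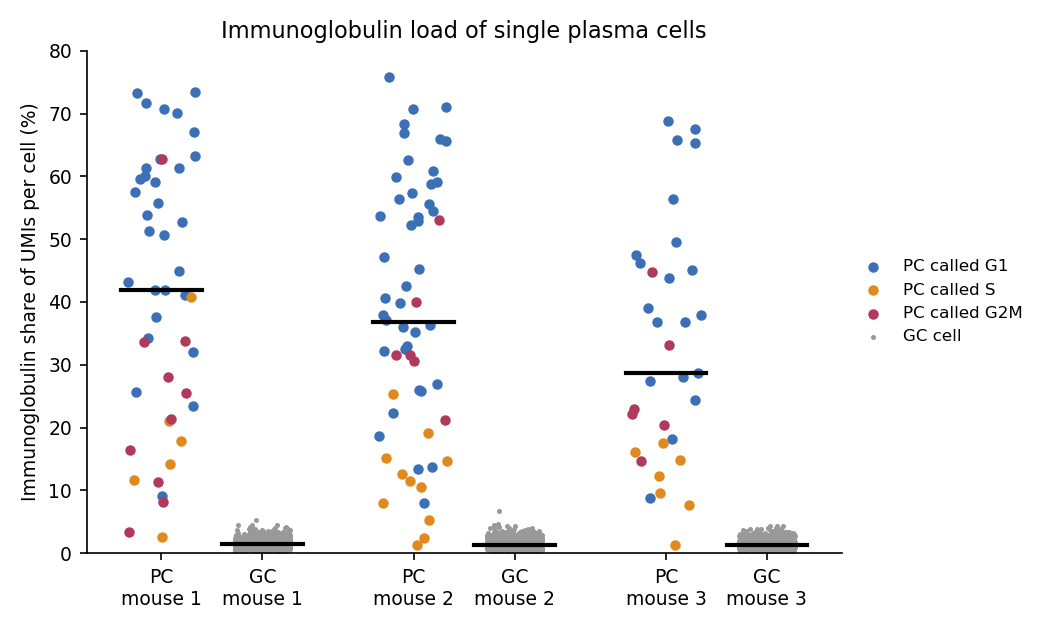
Immunoglobulin share of UMIs (%) in single cells, with PC left of GC cells in each of 3 mice; each point is 1 cell and PC are coloured by the authors' cell cycle call, and black lines are medians. PC ran from 1.28% to 75.8%, while no GC cell exceeded 6.69%.

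The ends of the range differed in cell cycle phase and barcode series. The 6 PC of lowest load (1.28 to 5.299%) were all in the first series and called S or G2M, with 0 UMIs of Sdc1, 1 to 7 of Xbp1 and 3 to 66 of Jchain. The 6 of highest load (70.8 to 75.8%) were all in the second series and called G1, with 18 to 74 UMIs of Xbp1 and 418 to 1343 of Jchain. Over all PC the median load was 47.4% in 91 G1 cells, 12.5% in 24 S cells and 26.7% in 22 G2M cells. Within mice 1, 2 and 3 the median was 19.5, 15.1 and 16.1% in PC called S or G2M and 54.8, 47.1 and 41.4% in PC called G1. PC called S or G2M were lower in 3 of 3 mice, also in the second series alone (21.3, 22.2 and 18.2% in PC called S or G2M and 54.8, 53.5 and 43.8% in G1 PC). Load is a share: over all PC it rose with a cell's immunoglobulin UMIs (mean Spearman's rho 0.820) and fell with its other UMIs (-0.7097). How much each contributed to the difference between phases was not tested. Mki67, a proliferation marker, stood at 345, 264 and 444 CPM of non-immunoglobulin UMIs in the PC called S or G2M and 66.8, 43.3 and 96.2 CPM in G1 PC, and Top2a, a topoisomerase of dividing cells, at 392, 299.7 and 417 CPM in PC called S or G2M and 5.81, 11.4 and 16.7 CPM in G1 PC. Which genes gave the phase calls was not known here, so these values are not an independent check of the calls. Flipping the signs of 3 mice, an exact permutation test (two-sided), cannot go below p = 0.25, the value it gave here.

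PC of the first barcode series had median loads of 3.45, 13.7 and 11.7% in mice 1, 2 and 3, against 43.2, 42.5 and 36.8% in the second series. Their summed secretory genes were lower (23812, 54672 and 61446 CPM in the first series, 106851, 98125 and 96436 CPM in the second). Their summed B cell genes were higher (21682, 40739 and 28448 CPM in the first series, 13122, 15035 and 14010.5 CPM in the second). Of the 20 PC in the first series 7 were called G1, against 84 of 117 in the second. Well, sort and state of the cells cannot be told apart here.

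Class-switched IgG dominated the plasma cells. By the most abundant heavy-chain constant transcript, 63 PC were IgG1, 26 IgG2c, 23 IgM, 20 IgG2b and 5 IgG3. That transcript made up a median of 98.1% of a cell's heavy-chain constant UMIs, and less than 80% in 14 cells, which had a median of 101 such UMIs against 421 in the others. IgG1 led in 25 PC of mouse 1 (54.3%, Clopper-Pearson 95% interval 39.01% to 69.1%), 17 of mouse 2 (29.3%, 18.1% to 42.7%) and 21 of mouse 3 (63.6%, 45.1% to 79.6%). IgG2c led in 3 PC of mouse 1 (6.52%, 1.37% to 17.9%), 23 of mouse 2 (39.7%, 27.05% to 53.4%) and 0 of 33 in mouse 3, which allows up to 9.09%. Most IgG2c PC were therefore from mouse 2. The intervals cover counting error only.

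IgG together made up 86.96%, 84.5% and 75.8% of PC in mice 1, 2 and 3, 29.4%, 54.5% and 40% of prePC and 40.2%, 44.4% and 39.98% of the GC cells with a heavy-chain constant UMI. IgM made up 13.04%, 15.5% and 24.2% of PC and 58.7%, 54.3% and 59.04% of GC cells. The order of PC and GC cells was the same in 3 of 3 mice. PC held a median of 374 heavy-chain constant UMIs, whereas in prePC and GC cells 1 such UMI was enough for a call. Ties went to Ighm, and how many cells they concerned was not counted. The isotype shares of prePC and GC cells are thus less certain than those of PC. UMIs of a second class were common. Of the PC not called IgM 48 had a UMI of Ighm, 43 of them more than 1, with a median of 17.5 and at most 171 UMIs. Of the IgM PC 13 had a UMI of Ighg1, at most 5. How much of these is free RNA was not tested.

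Some heavy variable segments led in plasma cells of all mice and others in those of 1 mouse. A heavy V segment was found in 136 PC, its leading segment holding a median of 99.4% of V UMIs. There were 42 leading segments, of which 18 led in a single cell, 6 led in PC of all 3 mice and 24 in PC of 1 mouse. Ighv1-72 led in 29 PC (8, 11 and 10 by mouse), Ighv1-22 in 11, Ighv1-64 in 11, Ighv1-53 in 7 and Ighv1-26 in 6. Ighv1-72 (chr12:115757984-115758461, minus strand, GRCm38) is the segment known from antibodies to the NP hapten in mice, joined with a lambda light chain. Stretches of 3 segments are shown because they belong to 1 family and reads could be split between near-identical members. Each covers the same 123 bases of the V segment, in GRCm38, and capitals mark bases that differ from Ighv1-72.
Ighv1-72 (chr12:115758080-115758202, minus strand): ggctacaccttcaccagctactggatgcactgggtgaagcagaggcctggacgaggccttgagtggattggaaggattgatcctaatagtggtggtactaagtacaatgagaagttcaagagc
Ighv1-64 (chr12:115507641-115507763, minus strand): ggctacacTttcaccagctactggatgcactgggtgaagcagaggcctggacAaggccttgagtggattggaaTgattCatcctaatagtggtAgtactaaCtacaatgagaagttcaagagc
Ighv1-22 (chr12:114746369-114746491, minus strand): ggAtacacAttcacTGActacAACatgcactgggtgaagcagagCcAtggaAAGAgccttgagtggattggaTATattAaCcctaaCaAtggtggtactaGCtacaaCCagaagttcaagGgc

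Over the whole V segment Ighv1-64 and Ighv1-53 were each 95.9% identical to Ighv1-72, Ighv1-26 was 85.4% and Ighv1-22 was 85.03% identical, so counts among the first 3 segments are less certain. Of the 29 Ighv1-72 PC, 27 had a lambda V segment in the lead, Iglv1 (chr16:19085017-19085500, minus strand), in 6, 11 and 10 cells by mouse. By isotype 19 of them were IgG1, 5 IgG2c, 3 IgG2b and 2 IgM. All 11 PC led by Ighv1-22 were in mouse 2, 9 of them IgG2c and 6 with Igkv9-124 as leading light V segment. Ighv1-64 led in 8 PC of mouse 1, of which 4 had Igkv8-24. Clonal origin was not tested, as receptor sequence libraries were not used here.

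Among cells with at least 3 heavy V UMIs, Ighv1-72 led in 17.8%, 19.3% and 30.3% of PC and 7.38%, 8.88% and 10.5% of GC cells of mice 1, 2 and 3. The means were 22.5% ± 6.83 in PC and 8.93% ± 1.57 in GC cells (SD, n = 3). PC were higher in 3 of 3 mice, by 13.5 ± 5.42 percentage points (exact sign-flip permutation p = 0.25, the smallest possible). Ighv1-22 led in 0%, 19.3% and 0% of PC and 8.62%, 22.1% and 7.78% of GC cells. Lambda constant transcripts led in 15.2%, 29.3% and 51.5% of PC and 34.04%, 36.9% and 28.97% of GC cells, so that the order differed between mice. In prePC they led in 64.7%, 72.7% and 80%. This call is uncertain: of the 17 PC of mouse 2 that it named lambda, 4 had mostly kappa V segments. It was not compared with light V segments in the other states, so these shares are not read as light chain use.

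**Figure D2:**
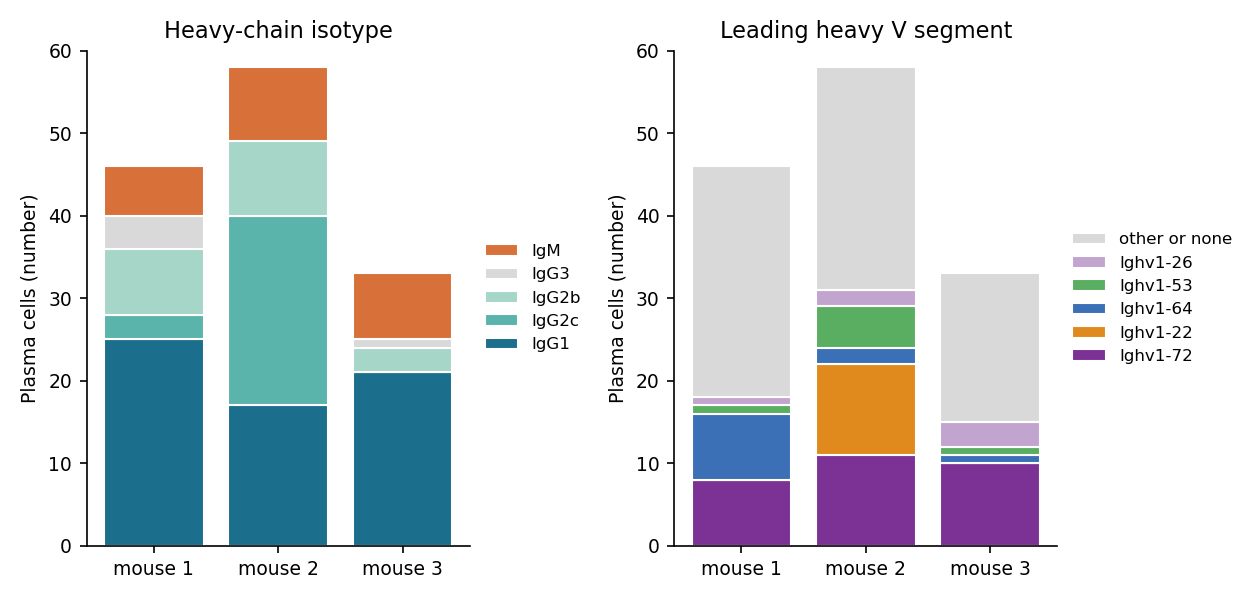
Number of PC per mouse by isotype and by leading heavy V segment. IgG1 was the most frequent isotype in mice 1 and 3 and IgG2c in mouse 2, and Ighv1-72 led in 8, 11 and 10 PC while all 11 PC led by Ighv1-22 were in mouse 2.

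Secretory genes stood high in most plasma cells. The genes of 4 lists (ER chaperones of the unfolded protein response, ER-associated degradation, ER import and glycosylation, and ER to Golgi transport) summed to 11589.9 to 268478 CPM of non-immunoglobulin UMIs per PC, with a median of 92448 CPM. Mouse medians were 104547, 91125 and 87791 CPM and averaged 94488 ± 8870.0 CPM in PC, 14483 ± 533 CPM in prePC and 11743 ± 114 CPM in GC cells (SD, n = 3). The 6 PC of lowest load had sums of 11589.9 to 23812 CPM, inside the range of GC cells, whose highest sum was 26459.9 CPM. By list, chaperones summed to 47049 ± 5379 CPM in PC and 3794 ± 88.7 CPM in GC cells, and import and glycosylation genes to 30911 ± 3344 CPM in PC and 4814 ± 33.9 CPM in GC cells. Degradation genes summed to 7179.9 ± 532 CPM in PC and 1211 ± 19.5 CPM in GC cells, and transport genes to 8623 ± 288 CPM in PC and 1807 ± 17.7 CPM in GC cells. Each list was higher in PC in 3 of 3 mice.

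Chaperone genes are known targets of the ER stress response element, and some promoters that hold it are shown because the whole list was higher in PC. The element was searched on both strands as CCAAT, any 9 bases, and CCACG. It was found in 39 of 32851 RefSeq promoters (GRCm38.p6, 0.119%), in 7 of 20 matched chaperone promoters (of 25 listed) and in 2 of 10 matched degradation promoters (of 13). It was in 0 of 23 matched import and glycosylation promoters and 0 of 18 matched transport promoters, lists that were also higher in PC. The promoters shown are those of Hspa5, Hsp90b1, Creld2 and Derl3, chosen after their values were seen; Calr, Pdia6, Dnajc3, Canx and Syvn1 held it too. A match is a description of the letters, not a test of binding. Capitals mark the match in each window, read 5' to 3' on the strand of the gene.
Hspa5 (chr2:34772010-34772058, plus strand): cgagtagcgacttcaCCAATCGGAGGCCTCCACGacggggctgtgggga
Hsp90b1 (chr10:86705623-86705671, minus strand): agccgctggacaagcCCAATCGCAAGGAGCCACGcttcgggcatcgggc
Hsp90b1 (chr10:86705518-86705566, minus strand): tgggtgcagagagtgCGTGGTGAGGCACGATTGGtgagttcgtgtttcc
Creld2 (chr15:88819505-88819553, plus strand): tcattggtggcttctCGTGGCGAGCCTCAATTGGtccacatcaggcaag
Derl3 (chr10:75893227-75893275, plus strand): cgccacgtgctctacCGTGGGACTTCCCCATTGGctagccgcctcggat

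In summed cells all 25 chaperone genes were higher in PC past an adjusted p of 0.05 (edgeR's quasi-likelihood test, Benjamini-Hochberg). Their log2 fold changes had a median of 3.28; that of the 8473 genes tested was -0.09. Of all genes 25.9% were called higher and 27.2% lower, and as the cells had been grouped on these counts nothing is read from the number of calls. Within the first barcode series, where the PC sums hold 3, 11 and 6 cells, 1111 genes were called against 4497. There 22 of 24 chaperone, 10 of 12 degradation, 24 of 27 import and 16 of 22 transport genes were higher in PC, with medians of 2.04, 1.72, 1.54 and 1.43 beside -0.21 over all 7401 genes. Of all 7401 genes 540 were called higher there. Hsp90b1, the ER chaperone Grp94, stood at 12936, 11534 and 12112 CPM in PC and 239.9, 227 and 225 CPM in GC cells (log2 fold change 5.84 ± 0.10 SE). Hspa5, the chaperone BiP, stood at 2749, 2253 and 3185 CPM in PC and 338, 306 and 326 CPM in GC cells (3.16 ± 0.15). Neither overlapped between states. The largest change was that of Fkbp11, an ER prolyl isomerase, at 612 ± 88.05 CPM in PC and 0.575 ± 0.533 CPM in GC cells (11.40 ± 0.18). Pdia4, a disulfide isomerase, followed (6.05 ± 0.12), and then Creld2, an ER stress protein (5.12 ± 0.15). The smallest changes were those of Ero1lb, an ER oxidase (1.67 ± 0.12), and the lectin chaperone Canx (1.09 ± 0.13), which was not called within the first series (edgeR adjusted p 0.349).

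All 13 degradation genes were higher in PC (median 3.01). Derl3, which helps to move misfolded proteins out of the ER, stood at 685, 555 and 483 CPM in PC and 24.7, 19.03 and 22.6 CPM in GC cells (4.88 ± 0.09). Edem2, which trims mannose from misfolded proteins, followed (4.66 ± 0.11), while Syvn1, the ubiquitin ligase Hrd1, changed least (0.83 ± 0.12) and was at -0.31 within the first series, not called (edgeR adjusted p 0.455). Of 28 import and glycosylation genes 27 were higher and 1 lower (median 2.85). Ssr4, a subunit of the translocon-associated complex, stood at 3349.5, 3237 and 2264 CPM in PC and 192, 183 and 176 CPM in GC cells (3.997 ± 0.13). The lower gene was Stt3b, a catalytic subunit of oligosaccharyltransferase, at 99.3, 88.98 and 82.6 CPM in PC and 141, 126 and 130.5 CPM in GC cells (-0.48 ± 0.12, edgeR adjusted p 0.00392; 0.0519 without mouse 3 and 0.242 within the first series). All 22 transport genes were higher (median 2.23), led by Sec24d, a COPII coat subunit (5.42 ± 0.22), and the cargo receptor Lman1 (3.96 ± 0.14).

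Of 10 plasma cell transcription factors 8 were higher and 1 lower, beside 25.9% and 27.2% of all genes. Bhlha15 (Mist1), a factor of secretory cells, had 183 UMIs in PC and 0 in GC cells, at least 842-fold higher in PC against the same floor. Irf4 stood at 183, 199.9 and 141 CPM in PC and 6.28, 4.42 and 4.56 CPM in GC cells (5.31 ± 0.17). Pou2af1, the coactivator OCA-B, stood at 494, 530.0 and 424 CPM in PC and 467, 474 and 482 CPM in GC cells, where the groups overlapped, and did not pass (0.06 ± 0.11, edgeR adjusted p 0.662).

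Of 19 surface and homing genes 17 were higher and 1 lower, beside 25.9% and 27.2% of all genes. Ly6c2 was seen in 64.1% of PC and 0.101% of GC cells after thinning. Cd28, better known as a costimulatory receptor of T cells, was seen in 51.1%, 21.8% and 35.5% of thinned PC of mice 1, 2 and 3, with 324 UMIs in all PC and 3 in GC cells, a ratio of levels of 1491 (95% interval 506 to 7268), counting error only. The T cell genes Cd3e, Cd3d, Cd3g and Trac were at 0 UMIs in PC. Cxcr4, a homing receptor, stood at 54.7, 47.7 and 55.1 CPM in PC and 37.9, 47.04 and 48.8 CPM in GC cells and did not pass (0.35 ± 0.18, edgeR adjusted p 0.113).

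Among single PC the secretory level followed the load in part. Spearman's rho over the cells of a mouse was 0.512, 0.485 and 0.637 (46, 58 and 33 cells), a description of cells that share library and depth. The mean was 0.545 over all PC, 0.365 in the second series and 0.187 in G1 PC. With secretory genes taken per all UMIs, where immunoglobulin fills part of the total, it was -0.244. Of the 4 secretory lists degradation genes had the highest mean (0.727 over all PC and 0.536 in G1 PC), and chaperones had 0.467 and 0.115. Per non-immunoglobulin UMIs the sign held in each mouse and subset for the whole sum and for each list but chaperones (-0.0994 in G1 PC of mouse 1). Per all UMIs the whole sum was negative in each mouse and subset, except over all PC of mouse 3 (0.0104). Single lists were not taken per all UMIs.

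Of 1084 genes with a mean of at least 0.5 UMIs in thinned PC, those that followed the load most closely were Jchain (mean rho 0.853), Ssr4 (0.849), Pon3 (0.774), B2m (0.766), Edem2 (0.755), Cst3 (0.724), Laptm4a (0.721) and Itm2b (0.696). At the other end stood Rplp2 (-0.829), Tmsb10 (-0.823), Actg1 (-0.823), Rpsa (-0.817), Rps2 (-0.804), Rps26 (-0.798), Rps12 (-0.789) and Rps13 (-0.783). The genes at this end encode ribosomal proteins and proteins of the actin cytoskeleton. With levels per all UMIs the first 8 genes ran from 0.335 to 0.702 and the last 8 from -0.924 to -0.851, and in G1 PC from 0.471 to 0.731 and from -0.7499 to -0.648. The load also ran against the number of non-immunoglobulin UMIs of a cell (mean rho -0.7097) and the mitochondrial share (-0.564), whose part in these values was not tested.

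**Figure D3:**
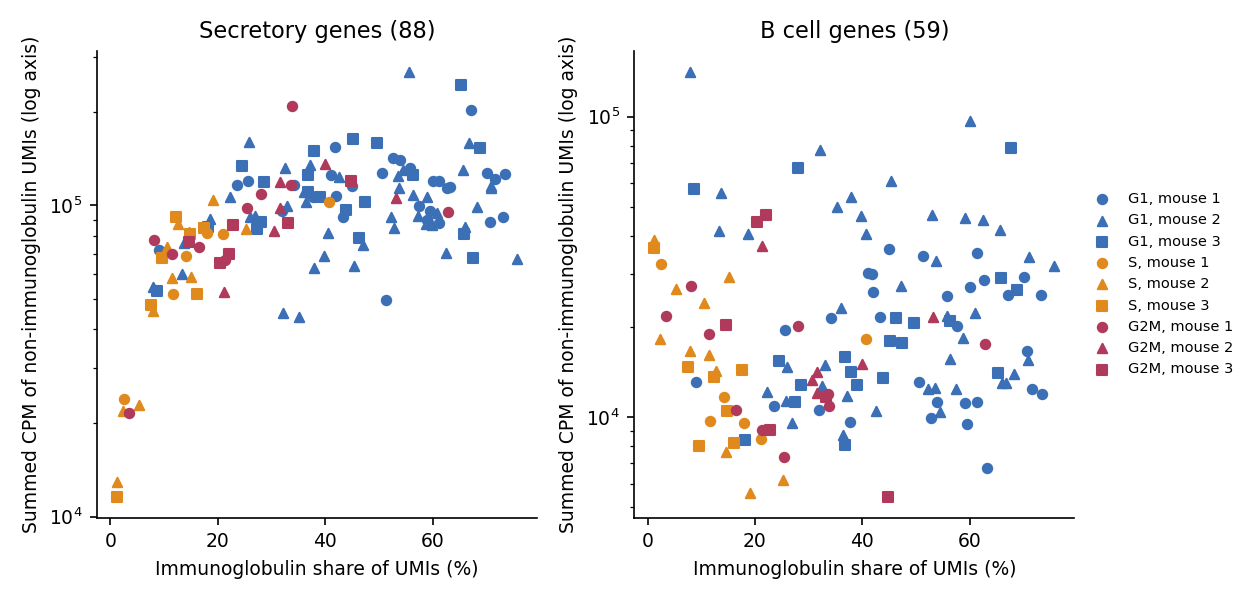
Summed level (CPM of non-immunoglobulin UMIs, log axis) of secretory genes and of B cell genes against immunoglobulin share of UMIs (%) in 137 PC, 1 point per cell, coloured by cell cycle call and shaped by mouse. Secretory sums were lowest in the PC of lowest load (mean rho over mice 0.545), and B cell sums had a mean rho of 0.1396; in the second series alone the means were 0.365 for secretory and 0.416 for B cell sums.

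By the ratio of variance to mean, some genes stood far above most. This ratio can rise with the level of a gene, and genes were not matched for level. Mean thinned counts were 141 for Slpi, 178 for Jchain and 48.2 for Hsp90b1, but 0.779 for Mt1 and 0.695 for Tmed6. The ratio of variance to mean of thinned counts was 272 for Slpi, a secreted protease inhibitor, against a median of 1.28 over the 1084 genes. Slpi was seen in 91.6% of PC and reached 998 UMIs, with medians of 33, 89 and 52 in mice 1, 2 and 3. Jchain (145), Apoe (51.4), Malat1 (40.4), Mt1 (40.3), Cd74 (39.2), Prg2 (31.4) and Cd52 (26.4) came next. Tmed6 (25.1), Hsp90b1 (23.8), H2-Aa (22.2) and Ly6c2 (19.98) completed the 12. Apoe, a lipid carrier, was seen in 11.5% of PC and reached 27, 90 and 2 UMIs in mice 1, 2 and 3, so its high cells were mostly in mouse 2. Mt1 reached 4, 62 and 4 UMIs and Prg2 12, 79 and 6, so their highest cells were in mouse 2 too.

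B cell genes were kept in part. The 59 measured genes of 4 lists (B cell transcription factors, B cell receptor and surface genes, MHC class II, and GC genes) summed to 5431 to 140826 CPM of non-immunoglobulin UMIs per PC, with a median of 16582 CPM. Mouse medians were 17070.4, 18206 and 14678 CPM and averaged 16651 ± 1801 CPM in PC, 53828 ± 4438 CPM in prePC and 56699 ± 824 CPM in GC cells (SD, n = 3). A PC had UMIs of 12 to 49 of these genes. The highest sum was in a G1 cell of mouse 2 in the first barcode series, with 6420 UMIs, a load of 7.98% and MHC class II genes at 127624 CPM. The next was a G1 cell of mouse 2 in the second series, with a load of 59.95% and 1511 UMIs of Jchain. High sums thus occurred at low and at high load. The 3 lowest sums (5431, 5577 and 6162 CPM) were in PC of the second series called S or G2M, all led by Ighv1-72.

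Of 9 class II genes, Cd74, H2-Ab1, H2-Eb1 and H2-Aa were seen in most PC, as were the signalling chains of the receptor, and several B cell and GC factors in almost none. After thinning, 20 of the 59 genes were seen in over 25% of PC and 50 in over 25% of GC cells. The share was lower in PC in 3 of 3 mice for 54 genes and higher for 2, Klf2 and Cd24a. The same counts were not made over all genes, so nothing is read from these numbers of genes. Cd74, the invariant chain, was seen in 100% of PC and 100% of GC cells. H2-Ab1 was seen in 93.1% of PC and 99.8% of GC cells, H2-Eb1 in 92.4% of PC and 99.9% of GC cells, H2-Aa in 74.05% of PC and 99.9% of GC cells and H2-DMa, which helps to load peptides, in 34.4% of PC and 86.8% of GC cells. Of the receptor's signalling chains, Cd79b was seen in 93.1% of PC and 99.5% of GC cells and Cd79a in 90.1% of PC and 99.8% of GC cells. Cd24a was seen in 94.7% of PC and 92.9% of GC cells and Blnk, an adaptor of the receptor, in 80.9% of PC and 78.5% of GC cells.

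Other surface genes were seen in fewer PC. Ms4a1 (CD20) was seen in 26.7%, 45.5% and 41.9% of thinned PC of mice 1, 2 and 3 and in 99.4% of GC cells. Cd53 was seen in 55.7% of PC and 71.00% of GC cells, Cd37 in 46.6% of PC and 98.1% of GC cells, Ptprc (CD45) in 42.7% of PC and 80.8% of GC cells, the kinase Syk in 27.5% of PC and 50.3% of GC cells and the GC gene Nuggc in 25.2% of PC and 63.5% of GC cells. Among factors above 25% of PC, Mef2c was seen in 73.3% of PC and 87.6% of GC cells, Tcf3 in 40.5% of PC and 61.3% of GC cells, Ikzf3 in 31.3% of PC and 65.7% of GC cells and Pou2f2 in 25.95% of PC and 67.9% of GC cells. Pax5, the keeper of B cell identity, was seen in 0.763% of PC and 31.9% of GC cells and Ebf1 in 9.16% of PC and 83.3% of GC cells. Bach2 and Bcl6, which hold back the plasma cell programme, were seen in 0 of 131 PC, which allows up to 2.29%, and in 42.99% and 22.3% of GC cells. How much of the UMIs of these genes in PC is free RNA was not tested.

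**Figure D4:**
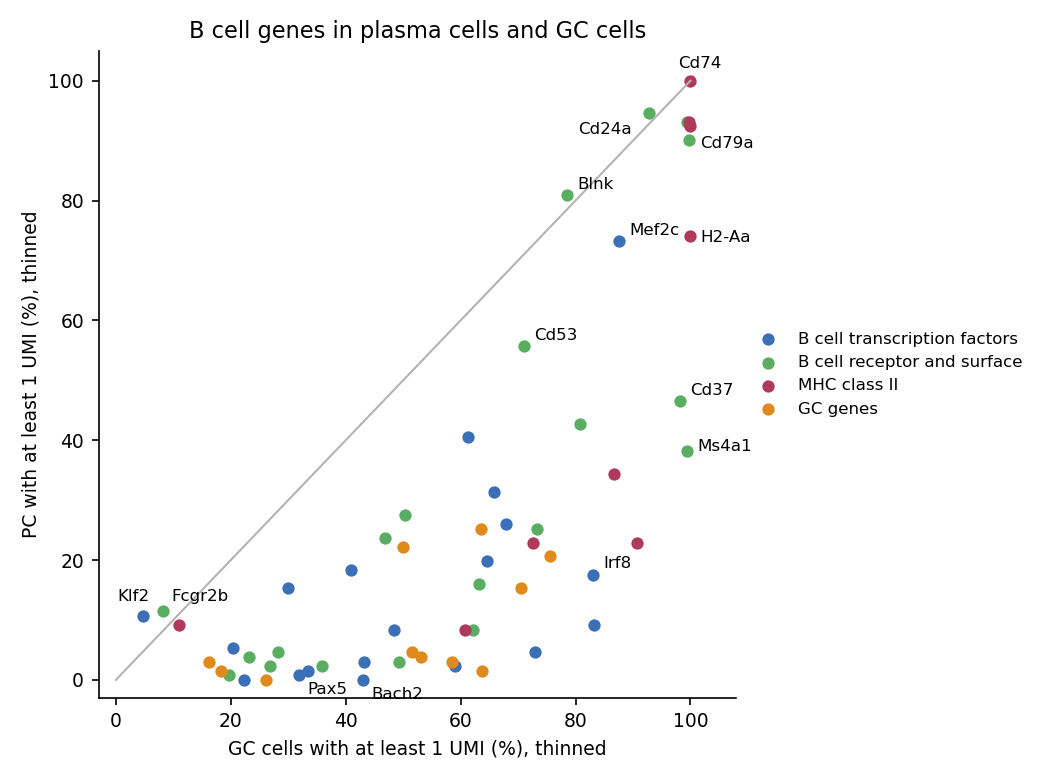
Share of PC and of GC cells (%) with at least 1 UMI of each of 59 B cell genes after thinning to 4000 non-immunoglobulin UMIs; each point is 1 gene, coloured by list, and the grey line marks equal shares. Most genes were seen in a smaller share of PC, such as Ms4a1 (38.2% of PC and 99.4% of GC cells), while Cd24a (94.7% of PC and 92.9% of GC cells) and Blnk (80.9% of PC and 78.5% of GC cells) were near equal.

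In summed cells 17 of 19 B cell factors were lower in PC and 1 higher (median -1.72). Of 20 receptor and surface genes 15 were lower and 3 higher (-1.74), of 9 class II genes 8 and 1 (-1.37), and all 12 GC genes were lower (-3.25). Within the first series 13 of 19 factors, 14 of 20 receptor and surface genes, 5 of 9 class II genes and 10 of 12 GC genes were lower. Of all genes 571 of 7401 were called lower there. With all cells 27.2% of all genes were called lower and 25.9% higher. Bach2 had 2 UMIs in PC and 6409 in GC cells, a GC to PC ratio of levels of 232 (95% interval 64.2 to 1917). Ciita, the master regulator of class II genes, stood at 0, 5.16 and 1.84 CPM in PC and 86.9, 75.3 and 79.3 CPM in GC cells (-4.91 ± 0.30). H2-Aa stood at 763, 1519 and 1085 CPM in PC and 3730.1, 3413 and 3469.9 CPM in GC cells (-1.59 ± 0.15). Cd79a stood at 1412, 2115 and 1286 CPM in PC and 2098, 2065 and 2068 CPM in GC cells, with overlap, and did not pass (-0.26 ± 0.15, edgeR adjusted p 0.155), though it did with PC of the second series alone (0.0162) and without mouse 2 (0.0222), and was 0.27 within the first series. H2-DMb1 was the class II gene called higher (0.60 ± 0.22), a call lost without mouse 1 (edgeR adjusted p 0.693), with PC of the second series alone (0.0713) and within the first series (0.567).

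Outside the lists, Entpd1 (CD39, an ectonucleotidase) had 341 UMIs in PC and 2 in GC cells, a ratio of levels of 2354 (95% interval 647 to 19515). Ckap4, an ER membrane protein, stood at 202, 197 and 197 CPM in PC and 0.0446, 0.0855 and 0.167 CPM in GC cells (10.84 ± 0.22). Hid1 and Trf (transferrin) had 0 UMIs in GC cells and were at least 663-fold and 492-fold higher in PC. Pgam2, Tmem154, the agouti gene a and Rbm47 completed the 8 genes of largest increase. Pgam2 varied between mice, at 60.5, 24.5 and 112 CPM in PC. The 8 of largest decrease were Cpne5, Bfsp2 (-5.42 ± 0.31), Emid1 (-5.35 ± 0.37), Ell3, Lta (-5.04 ± 0.28), Tnf, Lck (-4.56 ± 0.39) and Gsn (-4.51 ± 0.31). Lta and Tnf encode the cytokines lymphotoxin alpha and tumour necrosis factor.

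Against prePC, 13.7% of genes were called higher in PC and 12.2% lower. All 25 chaperone, 13 degradation and 22 transport genes were higher in PC, with medians of 2.44, 2.30 and 2.09. Prdm1 stood at 49.1 ± 2.36 CPM in PC and 37.7 ± 30.6 CPM in prePC (SD, n = 3), while Sdc1 had 282 UMIs in PC and 1 in prePC. Selm, an ER selenoprotein, had 330 UMIs in PC and 0 in prePC, at least 18.5-fold higher in PC. Of 14 genes of memory cells 12 were lower in PC than in prePC. Against GC cells 9 of these 14 were called higher in PC and 2 lower (median 2.33), beside 25.9% and 27.2% of all genes. Klf2, a factor of cell trafficking, stood at 104.7 ± 22.5 CPM in PC and 619 ± 214 CPM in prePC. Btg1 (-4.98 ± 0.35), Evl (-4.91 ± 0.30) and S100a6 (-4.76 ± 0.52) were among the 8 genes of largest decrease. The sums rest on 17, 22 and 10 prePC. Within the first barcode series 669 genes were called, against 2201.

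IgG and IgM plasma cells were compared within mice, with immunoglobulin genes left out, to see which other genes went with the class. Of 3342 genes 8 passed an adjusted p of 0.05 (0.239%), 1 higher in IgG PC (0.0299%) and 7 lower (0.209%), from sums of 40, 49 and 25 IgG PC and 6, 9 and 8 IgM PC. The calls depended on single mice: without mouse 2 or without mouse 3 edgeR called 0 genes (197 and 180 at an unadjusted p under 0.05, against 269 genes or 8.05% with all mice), and without mouse 1 it called 31. With immunoglobulin genes kept 9 genes passed, 6 higher and 3 lower, and Laptm5, Irf8 and Pycard were the 3 of the 8 that still passed. That count can include the heavy-chain genes that define the classes, so it is not comparable with the 8. Laptm5, a lysosomal protein that lowers antigen receptor levels, stood at 152, 317 and 172 CPM in IgG PC and 779.6, 1269.8 and 870.1 CPM in IgM PC (-2.22 ± 0.20, edgeR adjusted p 0.001003). Txndc5, an ER protein disulfide isomerase, stood at 899, 674 and 503 CPM in IgG PC and 2183, 3306 and 2327 CPM in IgM PC (-1.93 ± 0.21, edgeR adjusted p 0.00242). Both were lower in IgG PC without overlap.

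Irf8, a factor of B cells, stood at 29.4, 76.6 and 16.3 CPM in IgG PC and 269, 409 and 121 CPM in IgM PC (-2.76 ± 0.30, edgeR adjusted p 0.00242). H2-Aa stood at 684, 1340.0 and 720.2 CPM in IgG PC and 1161, 3001 and 2853 CPM in IgM PC (-1.31 ± 0.21, edgeR adjusted p 0.03998). Irf8 did not overlap between the classes, whereas for H2-Aa the IgG PC of mouse 2 lay above the IgM PC of mouse 1. Pycard, the inflammasome adaptor ASC, was the gene higher in IgG PC, at 909, 646 and 1056 CPM in IgG PC and 269, 220.4 and 384 CPM in IgM PC (1.59 ± 0.20, edgeR adjusted p 0.00684). Cd52, a small surface glycoprotein of lymphocytes, stood at 4448, 5385 and 3130.2 CPM in IgG PC and 12967, 8909 and 6546 CPM in IgM PC (-1.11 ± 0.16, edgeR adjusted p 0.0223). Ftl1, the ferritin light chain (-0.83 ± 0.14, edgeR adjusted p 0.03998), and Gm8369 (-2.83 ± 0.44, edgeR adjusted p 0.0306) were also lower in IgG PC. Each of the 8 had the same direction in 3 of 3 mice.

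**Figure D5:**
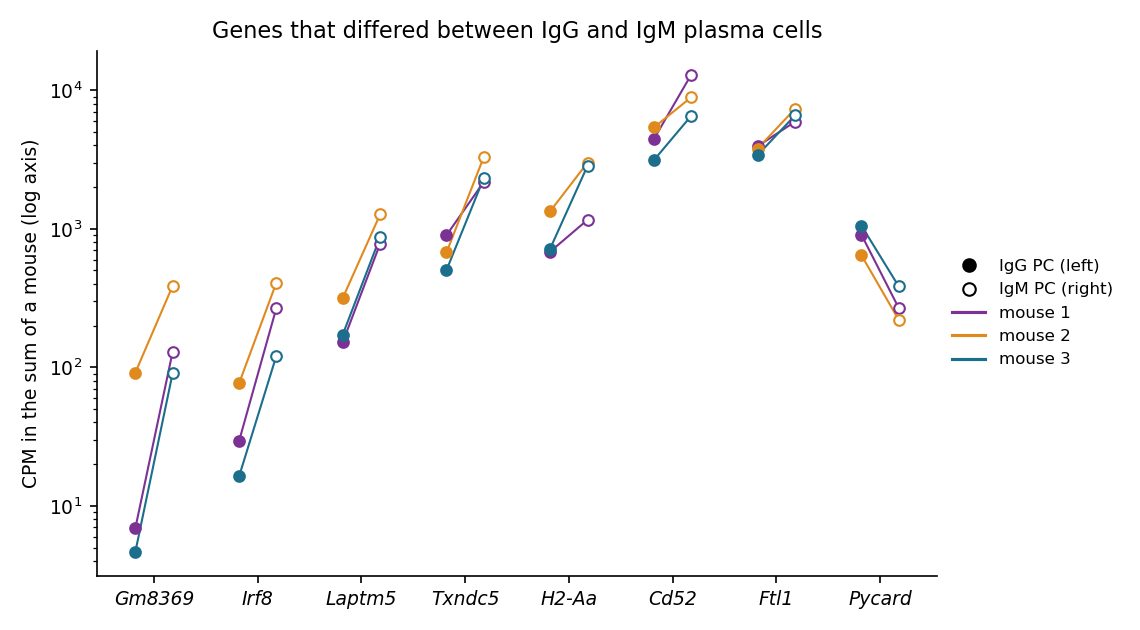
CPM (log axis) of the 8 genes that passed between IgG PC (left) and IgM PC (right) in each of 3 mice. Pycard was higher in IgG PC in each mouse and the other 7 genes lower, with Laptm5 at 152, 317 and 172 CPM in IgG PC and 779.6, 1269.8 and 870.1 CPM in IgM PC.

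Of 8 class II genes tested 8 had a log2 fold change below 0 (median -0.88), against 49.7% of all genes, and 1 passed. Cd79a stood at 1232, 2032 and 844 CPM in IgG PC and 2321, 3012 and 3419.6 CPM in IgM PC and did not pass (-1.16 ± 0.24, edgeR adjusted p 0.0932). The medians of the chaperone, degradation, import and transport lists were -0.01, 0.08, -0.02 and 0.05, with Txndc5 their 1 call. The median load was 47.8, 37.1 and 33.2% in IgG PC of mice 1, 2 and 3 and 26.8, 32.96 and 25.1% in IgM PC (exact sign-flip permutation p = 0.25, the smallest possible). In the second series the order turned in mouse 2 (50.9, 42.5 and 36.8% in IgG PC and 27.98, 42.96 and 32.96% in IgM PC). The median sum of B cell genes was 14817, 15564 and 14010.5 CPM in IgG PC and 19789, 41685 and 32936 CPM in IgM PC, lower in IgG PC in 3 of 3 mice, and in G1 PC alone in mice 2 and 3.

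Both classes held PC of each series and PC in and outside G1, but the first series made up a larger share of IgM PC. Of 114 IgG PC 74 were called G1 and 14 were in the first series, against 17 and 6 of 23 IgM PC. In the second series alone 5 genes passed, all among the 8, and in G1 PC alone 1 did, Laptm5. Those that did not pass in the second series were H2-Aa (edgeR adjusted p 0.367), Pycard (0.0716) and Ftl1 (0.0583). Without cells that held at least 2 UMIs of other cell types, Gm8369 (edgeR adjusted p 0.299) and Ftl1 (0.0761) did not pass.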

How the data were processed

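Per the submitters' processing notes the reads were processed with Cell Ranger and Seurat on mm10 (GRCm38); no source used here states versions, cell filters or how doublets were handled, and no doublet caller was run. The authors deposited a matrix of UMI counts per gene and cell (13886 genes, 255 of them immunoglobulin genes), and a cell table with annotation, mouse, phase and a plasma cell score per cell, whose scale the sources do not define. The 12 libraries in 6 groups are pooled in that matrix. The mouse is the replicate (n = 3).

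Counts were summed per mouse and state (at least 10 cells, 5 per isotype; 3348303 UMIs in PC, 562557 in prePC and 46225193 in GC cells). They were tested with edgeR 4.0.16 (TMM, filterByExpr, quasi-likelihood test, mouse as block, GC as the mean of its 3 states, Benjamini-Hochberg), checked on simulated counts. In these, 62% of 2-fold changes were recovered for PC against GC cells, 16.5% for PC against prePC and 27% for IgG against IgM PC. Of 4-fold changes 97%, 64.6% and 95.2% were recovered. A gene that was not called may therefore still differ 2-fold. The block is the animal, as the deposited table gives it: deviations of sums from the same mouse had a median correlation of 0.0401, and of different mice -0.0204. Levels of single cells are CPM of non-immunoglobulin UMIs. Members and gene lists were chosen with earlier results of these data known. Named genes are up to 8 per direction with the largest called change, at least 50 CPM and 1 direction in all mice, outside the lists, immunoglobulin segments and predicted genes. Added to these are the 4 largest and 2 smallest changes of a list, of which some are printed, and all genes called between IgG and IgM. Alternatives were another scaling (RLE), no filter, DESeq2, immunoglobulin genes left out or kept, no block, each mouse left out, PC of the second barcode series, all cells of the first, and subsets of cells. Single values of some listed genes are not reported here.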

Additional observations from a re-analysis of the deposited data

How the results depend on the processing

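PC against GC cells gave 4497 calls, 3604 to 3914 with 1 mouse left out and 4576 without the replicate block; within the first barcode series, an alternative chosen after seeing the data, it gave 1111; G1 cells alone gave no value, as too few LZtoDZ cells are called G1. PC against prePC gave 2201 calls, 1387 to 1690 with 1 mouse left out, 669 within the first series and 2293 without the block; with at least 20 cells per sum prePC are left with 1 sum, of mouse 2, assumed to vary like the other states, and 1381 calls. IgG against IgM PC gave 8 calls, 89 without a filter (45 higher and 44 lower) and 14 by DESeq2. With immunoglobulin genes kept it gave 9, a count that can include the genes that define the classes. It gave 0 to 31 with 1 mouse left out, 5 in the second series and 13 with a dominant isotype of at least 80%. In G1 PC, an alternative chosen after seeing the data, it gave 1. Without the block it gave 10, of which 4 were among the 8. In PC against GC cells with 1 mouse left out, Cd53 ran from -0.243 to 0.0337 and Pou2af1 from -0.0423 to 0.161 (log2), turning sign without mouse 1 (Cd53) and without mouse 2 (Pou2af1); Cd53 was 0.00657 with PC of the second series. Within the first series Cd79a (0.265), Pou2af1 (-0.1502), Sar1b (-0.177) and Syvn1 (-0.3102) turned sign. The load by constant genes was 3.65%, and secretory genes per all UMIs averaged 58290 CPM. B cell genes seen in over 25% of PC numbered 36 without thinning and 12 at 2000 UMIs. The mean rho of load with secretory genes was -0.244 per all UMIs, 0.365 in the second series and 0.187 in G1 PC, and with B cell genes -0.394 per all UMIs and 0.416 in the second series. The cause of these shifts was not tested. The IgG against IgM sums hold 6 to 9 IgM PC per mouse.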

Other observations

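Ighe, the IgE heavy chain, was found in 2 PC, neither led by it. A G2M cell of mouse 1 had 154 UMIs of Ighe beside 219 of Ighg1 and the highest UMI total of all PC, 54967. A G1 cell of mouse 3 had 15 UMIs of Ighe beside 331 of Ighg1. In GC cells 126 of 5418 had a UMI of Ighe, at most 4.

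In 4 PC, all of mouse 2 and the first barcode series, the leading light constant transcript was lambda while the light V segments were mostly kappa. The leading light constant gene held a median of 77.7% of light constant UMIs over all PC, and the leading light V class 98.9% of light V UMIs.

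PC led by Ighv1-72 had lower summed B cell genes than other PC in 3 of 3 mice, at 16458, 12381 and 10359.8 CPM in Ighv1-72 PC and 17070.4, 23884 and 17939 CPM in the others of mice 1, 2 and 3 (exact sign-flip permutation p = 0.25, the smallest possible with 3 mice). The difference was -6565 ± 5516 CPM (SD, n = 3). In the second series alone the medians were 11233, 12381 and 10359.8 CPM in Ighv1-72 PC and 14852, 17464 and 15845 CPM in the others.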
